A study of Rattus norvegicus with 6 samples.

Results

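The vascular endothelial growth factor (VEGF) and angiopoietin axis was followed in the renal cortex of rats through 10 genes: the ligand genes Vegfa, Angpt1 and Angpt2, the receptor genes Flt1, Kdr, Nrp1, Tek and Tie1, the endothelial junction gene Esam and the diaphragm gene Plvap. They were read from the non-control array probes whose transcript accession maps to one of these genes, 22 of 61537 probes, and as genes they made up 10 of the 31637 genes tested. All 22 probes passed the filter on dim spots, and 21 were well above background on every array. The genes were picked because, on these same arrays, Flt1, Tie1 and Esam were higher and Plvap was lower with tricresyl phosphate. The differences between the groups are therefore given as a description, with no p-value and as support for nothing.

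Total RNA of the renal cortex came from 6 male Sprague-Dawley rats, stock Crl:CD(SD), bought at 5 weeks of age and kept on a basal diet. Tricresyl phosphate, a flame retardant and plasticiser of the organophosphate class, was given to 3 rats at 200 mg/kg/day for 4 weeks, and the other 3 received the vehicle corn oil for 4 weeks. Each animal was measured on its own 1-colour Agilent array labelled with Cy3, and the comparison asks which cortical transcripts differ after exposure. Levels below are on a log2 scale on which 0 is the array's own 75th percentile of processed signal, and a difference of 1 is a doubling. Whole cortex was used, so fewer endothelial cells and less RNA per endothelial cell cannot be told apart. Levels of different probes are not comparable with each other, and only the same probe is compared between animals.

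VEGF-A is secreted in the kidney by podocytes and tubule cells and acts on the endothelium of the glomerulus and of the capillaries around the tubules. There it binds the tyrosine kinase receptors FLT1, which also has a soluble form that traps the ligand, and KDR, which carries most of the growth and permeability signal, with NRP1 as a co-receptor. Angiopoietin 1 activates the receptor TEK, also called TIE2, and stabilises vessels, angiopoietin 2 acts as a context-dependent antagonist, and TIE1 is an orphan receptor that modulates TEK. ESAM is an adhesion molecule of endothelial tight junctions and platelets, and PLVAP forms the diaphragms of fenestrae and caveolae, which peritubular capillaries have and most mature glomerular capillaries lack.

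Promoter sequence was available from RefSeq (build GRCr8) for 6 of the 10 genes, Vegfa, Flt1, Kdr, Nrp1, Tie1 and Plvap, and the 300 bases around the start of 4 of them are shown because these are the ligand and the receptors and diaphragm gene on which the results below turn. Capitals mark every match, on either strand, to the 5 motifs searched. These were AGGAAG, a core bound by ETS factors, and ACGTG, the core of hypoxia response elements. AGATAA was searched for GATA factors, the letters GGGCGG for the GC box and TATAAA for the TATA element. The windows are chr9:22452604-22452903, plus strand for Vegfa, chr12:12333180-12333479, plus strand for Flt1, chr5:137304932-137305231, minus strand for Tie1 and chr16:18231230-18231529, minus strand for Plvap, each read in the direction of the gene.
Vegfa: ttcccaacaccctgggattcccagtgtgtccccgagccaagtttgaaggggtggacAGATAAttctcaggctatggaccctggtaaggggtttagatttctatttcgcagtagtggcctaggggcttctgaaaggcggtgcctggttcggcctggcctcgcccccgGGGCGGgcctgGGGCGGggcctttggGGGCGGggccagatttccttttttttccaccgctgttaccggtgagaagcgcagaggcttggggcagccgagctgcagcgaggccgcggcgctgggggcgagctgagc
Flt1: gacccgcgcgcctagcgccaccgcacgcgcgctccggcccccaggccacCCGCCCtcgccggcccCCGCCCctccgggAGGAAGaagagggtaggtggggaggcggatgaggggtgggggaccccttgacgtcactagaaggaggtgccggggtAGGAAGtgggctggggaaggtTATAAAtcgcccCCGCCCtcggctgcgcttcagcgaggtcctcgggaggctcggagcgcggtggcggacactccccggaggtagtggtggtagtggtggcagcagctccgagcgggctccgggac
Tie1: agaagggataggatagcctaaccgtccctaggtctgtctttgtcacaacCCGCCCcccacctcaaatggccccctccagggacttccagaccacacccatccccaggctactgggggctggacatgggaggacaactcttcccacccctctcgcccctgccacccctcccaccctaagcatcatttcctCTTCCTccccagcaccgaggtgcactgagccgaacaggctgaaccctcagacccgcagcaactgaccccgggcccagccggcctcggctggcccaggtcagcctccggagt
Plvap: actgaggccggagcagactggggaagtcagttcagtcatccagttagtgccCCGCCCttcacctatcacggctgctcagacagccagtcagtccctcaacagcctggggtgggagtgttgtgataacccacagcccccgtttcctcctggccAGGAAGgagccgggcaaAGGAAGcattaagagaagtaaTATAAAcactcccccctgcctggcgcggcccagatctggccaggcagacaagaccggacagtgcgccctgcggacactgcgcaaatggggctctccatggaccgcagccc
The Flt1 window held 2 ETS cores, 3 GC boxes and 1 TATA element, and Plvap, the gene that differed the other way, held 2 ETS cores, 1 GC box and 1 TATA element. Tie1 held 1 ETS core and 1 GC box, and the Vegfa window shown 3 GC boxes and 1 GATA match. A second RefSeq window of Vegfa, chr9:22460028-22460327 on the plus strand with a GC content of 57.3%, held none of the 5 motifs. Over the 6 genes, which have 7 windows between them, and counting a gene once if any window holds the motif, the ETS core was found in 3, the GC box in 5, the TATA element in 2, the GATA motif in 1 and the hypoxia core in 0. Among 33469 rat promoter windows of the same length, the shares holding them were 34.5% for the ETS core, 33.1% for the GC box, 14.2% for the TATA element, 11.6% for the GATA motif and 19.3% for the hypoxia core. No 2 motifs overlapped in these windows, and sequence outside them was not searched. GC content was 72.7% for Flt1, 64.3% for Tie1, 63.3% for the Vegfa window shown and 61.0% for Plvap, against a median of 51.7% over all windows.

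The arrays were of similar brightness, with a median processed signal between 102.6 and 133.2 over a median background of at most 41.0. One slide held all animals but 1, corn oil replicate 1, which had a slide and a scan to itself. Hepatocyte genes varied most between animals of the same group: their mean level was −0.386 in tricresyl phosphate replicate 3 and 0.024 in corn oil replicate 2, and between −2.512 and −1.341 in the other 4. The difference of each gene's representative probe is therefore also given on the shared slide, which amounts to leaving out corn oil replicate 1. It is given as well without the 2 animals high in hepatocyte genes. With limma, 0 of 31637 genes (0%) passed an adjusted p under 0.05, against 1737 at an unadjusted p under 0.05, and no member passed under any of the 21 settings run. Because of this, "higher" and "lower" below describe means and not calls.

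**Figure D1:**
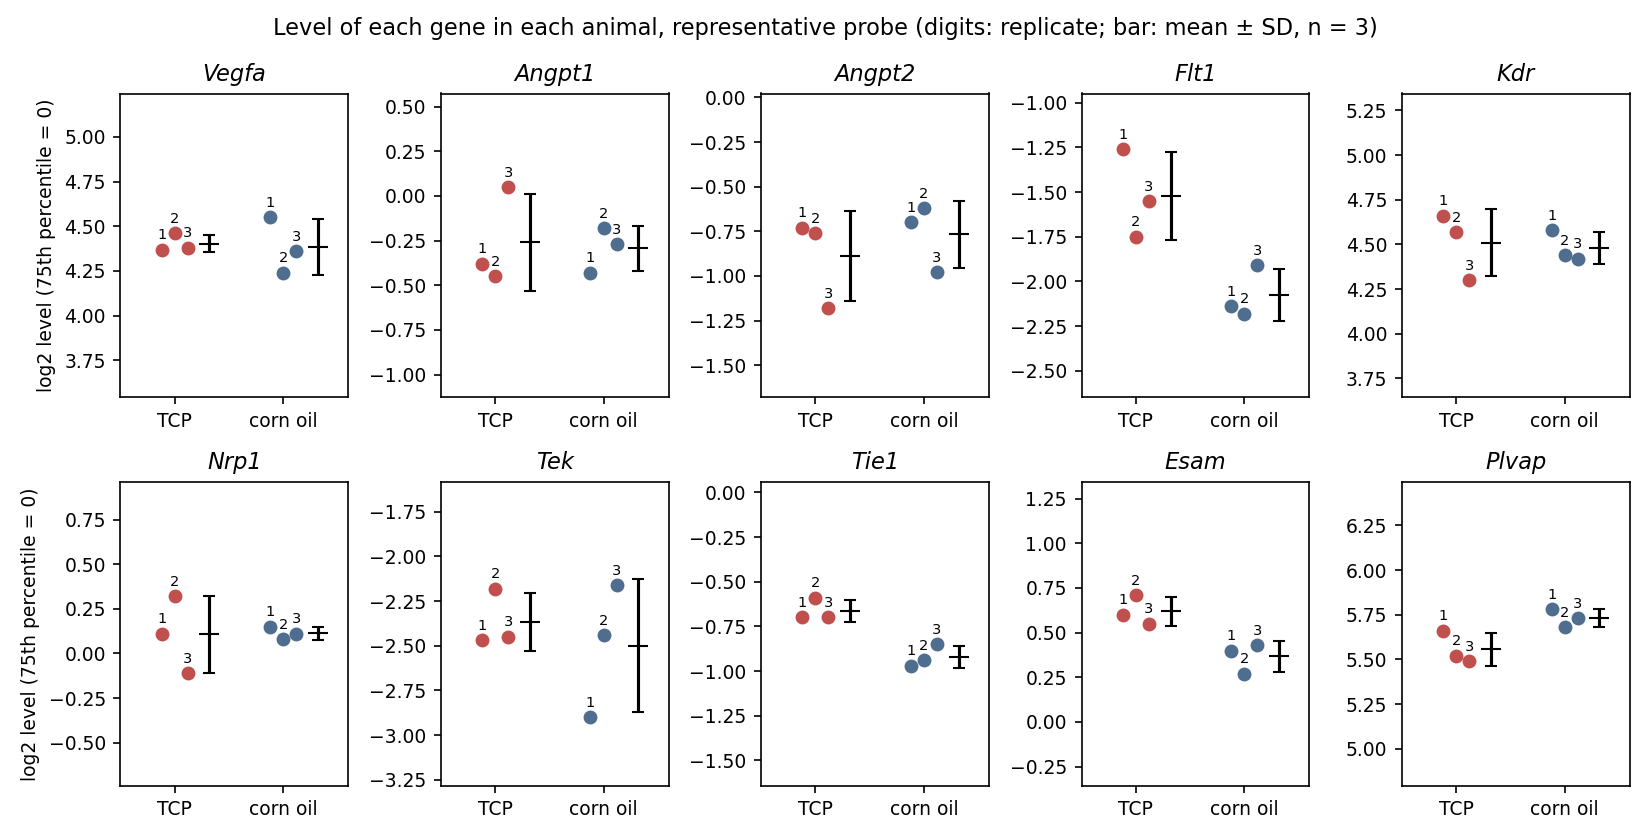
Log2 level of each of the 10 genes (y axis, 75th percentile of the array at 0, a window of equal height in each panel) in the 3 tricresyl phosphate animals (TCP, left) and the 3 corn oil animals (right), with digits for the replicate and a bar for the mean ± SD. The groups do not overlap for Flt1, Tie1 and Esam, which are higher with tricresyl phosphate, and for Plvap, which is lower.

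Among the VEGF receptors, Flt1 had the largest difference of the 10 genes, while Kdr and Nrp1 were nearly level. The representative probe of Flt1 read −1.26, −1.75 and −1.55 in the tricresyl phosphate animals, replicates 1 to 3, against −2.14, −2.18 and −1.91 in the corn oil animals. Every treated animal was above every vehicle animal, with treated replicate 1 the highest. The means were −1.52 ± 0.25 with tricresyl phosphate and −2.08 ± 0.15 with corn oil (SD, n = 3 each), a difference of 0.56 ± 0.15 (SE), or 1.47-fold. It was 0.53 on the shared slide, 0.52 without the 2 animals high in hepatocyte genes, and between 0.43 and 0.68 when any 1 animal was left out.

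The other Flt1 probes, which carry the same accession NM_019306, showed smaller differences. Probe 2 gave −1.69, −1.66 and −1.94 with tricresyl phosphate against −2.22, −2.09 and −1.64 with corn oil. Here corn oil replicate 3 was the highest of all 6 animals, so the groups overlapped, and the difference was 0.22 ± 0.18 (SE). Probe 3, the dimmest, gave −3.27, −3.06 and −3.32 with tricresyl phosphate against −3.69, −3.38 and −3.31 with corn oil, with a difference of 0.25 ± 0.14 (SE) and an overlap by 1 corn oil animal. With the 3 probes averaged, the Flt1 difference was 0.34 ± 0.13 (SE), and under normexp background correction with quantile normalization it was 0.36 ± 0.09 (SE).

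Kdr, the main signalling receptor for VEGF-A, stood at 4.66, 4.57 and 4.30 with tricresyl phosphate and at 4.58, 4.44 and 4.42 with corn oil. The highest and the lowest animal were both in the treated group, and the difference was 0.03 ± 0.12 (SE), with a sign that turned under 3 of 20 alternatives. It was 0.08 on the shared slide and 0.11 without the 2 animals high in hepatocyte genes. Nrp1, the co-receptor, read 0.11, 0.32 and −0.11 with tricresyl phosphate and 0.15, 0.08 and 0.11 with corn oil. The SD was 0.21 with tricresyl phosphate and 0.04 with corn oil, and the difference was −0.01 ± 0.13 (SE), with a sign that turned under 5 of 20 alternatives. On the shared slide it was 0.02, and without the 2 animals it was 0.08. No test of the difference between Flt1 and Kdr in their response was made.

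For the ligand Vegfa the 6 probes did not share a direction. Its representative probe, of accession NM_031836, read 4.37, 4.46 and 4.38 with tricresyl phosphate against 4.55, 4.24 and 4.36 with corn oil. The treated animals lay inside the range of the vehicle animals, with a difference of 0.02 ± 0.11 (SE) that ran from −0.05 to 0.12 over the alternatives and turned sign under 4 of 20, with 0.10 on the shared slide and −0.04 without the 2 animals high in hepatocyte genes. Of the remaining 5 probes, 4 were lower and 1 higher. Probe 3 was lower in every treated animal, at 2.33, 2.40 and 2.37 against 2.48, 2.40 and 2.46 with corn oil, by 0.08 on the log2 scale, so narrowly that a value of each group rounds to 2.40. Probe 6 was higher in every treated animal, at −0.35, −0.11 and −0.33 against −0.48, −0.43 and −0.44 with corn oil, with a difference of 0.19 ± 0.10 (SE). Both carry the accession of the representative probe. The 2 probes of the transcript NM_001110334 differed by −0.20 ± 0.11 and −0.05 ± 0.10 (SE), with overlapping groups.

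The angiopoietins were close to level. Angpt1, the TEK agonist, had 1 probe, at −0.38, −0.45 and 0.05 with tricresyl phosphate and −0.43, −0.18 and −0.27 with corn oil. Treated replicate 3 was the highest of the 6 animals and treated replicate 2 the lowest, and the difference was 0.03 ± 0.16 (SE), or −0.03 on the shared slide and −0.06 without the 2 animals. Angpt2, the antagonist, read −0.73, −0.76 and −1.18 with tricresyl phosphate against −0.70, −0.62 and −0.98 with corn oil. Replicate 3 was the lowest of its group in both groups on this probe and again on the other 2 Angpt2 probes, so the spread between animals was shared by the probes. Differences of the 3 probes were −0.12 ± 0.16, −0.07 ± 0.14 and −0.21 ± 0.20 (SE), all lower, with overlapping groups. The first of these was −0.09 on the shared slide. Without tricresyl phosphate replicate 3 it was 0.02, and without the 2 animals high in hepatocyte genes it was 0.10.

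Of the TIE receptors, Tie1 was higher on both of its probes and Tek was not. The representative Tie1 probe read −0.70, −0.59 and −0.70 with tricresyl phosphate and −0.97, −0.94 and −0.85 with corn oil. All treated animals were above all vehicle animals, and both groups were tight, at −0.66 ± 0.06 with tricresyl phosphate and −0.92 ± 0.06 with corn oil (SD, n = 3 each). The difference was 0.25 ± 0.08 (SE), 1.19-fold, with 0.23 on the shared slide, 0.27 without the 2 animals high in hepatocyte genes and 0.22 to 0.29 when any 1 animal was left out. Probe 2, at −2.17, −2.14 and −1.94 with tricresyl phosphate against −2.54, −2.23 and −2.29 with corn oil, was also separated and differed by 0.27 ± 0.12 (SE).

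Tek, the angiopoietin receptor itself, read −2.47, −2.18 and −2.45 with tricresyl phosphate and −2.90, −2.44 and −2.16 with corn oil. The SD was 0.16 with tricresyl phosphate and 0.37 with corn oil, with corn oil replicate 1, the animal alone on its slide, lowest on both Tek probes. The difference of 0.13 ± 0.20 (SE) became −0.07 on the shared slide and 0.20 without the 2 animals, and the second probe differed by −0.10 ± 0.19 (SE).

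Esam and Plvap, the junction and the diaphragm gene, differed in opposite directions. Esam, with 1 probe, read 0.60, 0.71 and 0.55 with tricresyl phosphate and 0.40, 0.27 and 0.43 with corn oil. The groups did not overlap, with means of 0.62 ± 0.08 with tricresyl phosphate and 0.37 ± 0.08 with corn oil (SD, n = 3 each) and a difference of 0.25 ± 0.09 (SE), or 1.19-fold. It was 0.27 on the shared slide, 0.24 without the 2 animals high in hepatocyte genes and 0.21 to 0.29 when any 1 animal was left out.

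The representative probe of Plvap read 5.66, 5.52 and 5.49 with tricresyl phosphate and 5.78, 5.68 and 5.73 with corn oil. All treated animals were below all vehicle animals, by a gap between the closest animals that was small beside the spread. The means were 5.56 ± 0.09 with tricresyl phosphate and 5.73 ± 0.05 with corn oil (SD, n = 3 each) and the difference was −0.17 ± 0.09 (SE), 0.89-fold. It was −0.15 on the shared slide and −0.16 without the 2 animals high in hepatocyte genes. It shrank to −0.06 under quantile, −0.07 under cyclic loess and −0.05 under normexp with quantile normalization. Among the fifth of genes with the highest signal, to which this probe belongs, the median difference was −0.07 and 76.0% of genes were lower. The second, dimmer Plvap probe differed by −0.06 ± 0.11 (SE), at −0.19, −0.16 and −0.20 with tricresyl phosphate and −0.28, −0.15 and 0.06 with corn oil, and its groups overlapped.

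**Figure D2:**
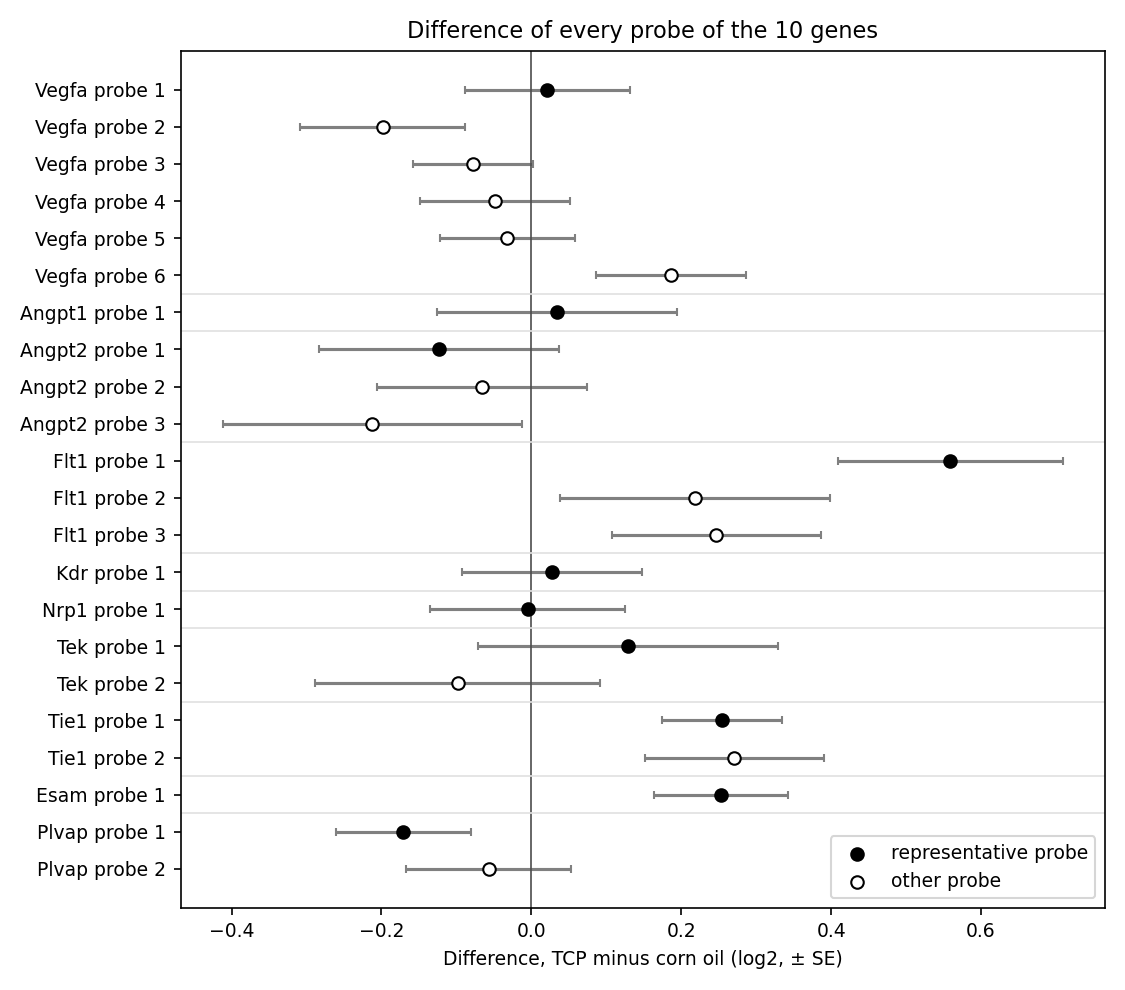
Difference between tricresyl phosphate and corn oil (TCP minus corn oil, log2, x axis) for each of the 22 probes, grouped by gene, with bars for ± SE from limma, filled points for the representative probe and open points for the others. The 3 Flt1 and 2 Tie1 probes lie above 0, the 3 Angpt2 and 2 Plvap probes below 0, and the 6 Vegfa and 2 Tek probes on both sides.

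Counted over the representative probes, 7 of the 10 genes were higher and 3 lower, where 40.8% of all genes tested were higher and 59.2% lower. Over all 22 probes 11 were higher and 11 lower, with groups that did not overlap in 5 of the higher and 2 of the lower probes, where 4.69% and 7.08% of all kept probes were so. The groups did not overlap for 3 genes that were higher and 1 that was lower, which are the genes named in the choice of members. Over all genes tested, 3.85% lay wholly higher and 7.95% wholly lower. The median difference was 0.03 over the 10 genes and −0.038 over all genes tested, and the median size of the difference was 0.13 and 0.12. Of the 6 genes with several probes, Flt1, Tie1, Angpt2 and Plvap had 1 direction on all of them. Tie1, Plvap and Esam varied less between animals of a group than the median of genes of like signal, with residual SDs of 0.06 against 0.16, 0.07 against 0.11 and 0.08 against 0.12. They were chosen for their differences on these arrays, and such a choice can favour a small spread. Flt1, Angpt1, Angpt2 and Tek varied more, with residual SDs of 0.20 against 0.16, 0.21 against 0.16, 0.22 against 0.16 and 0.29 against 0.21. So did Kdr, Nrp1 and Vegfa, with 0.15 against 0.11, 0.15 against 0.12 and 0.12 against 0.11.

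**Figure D3:**
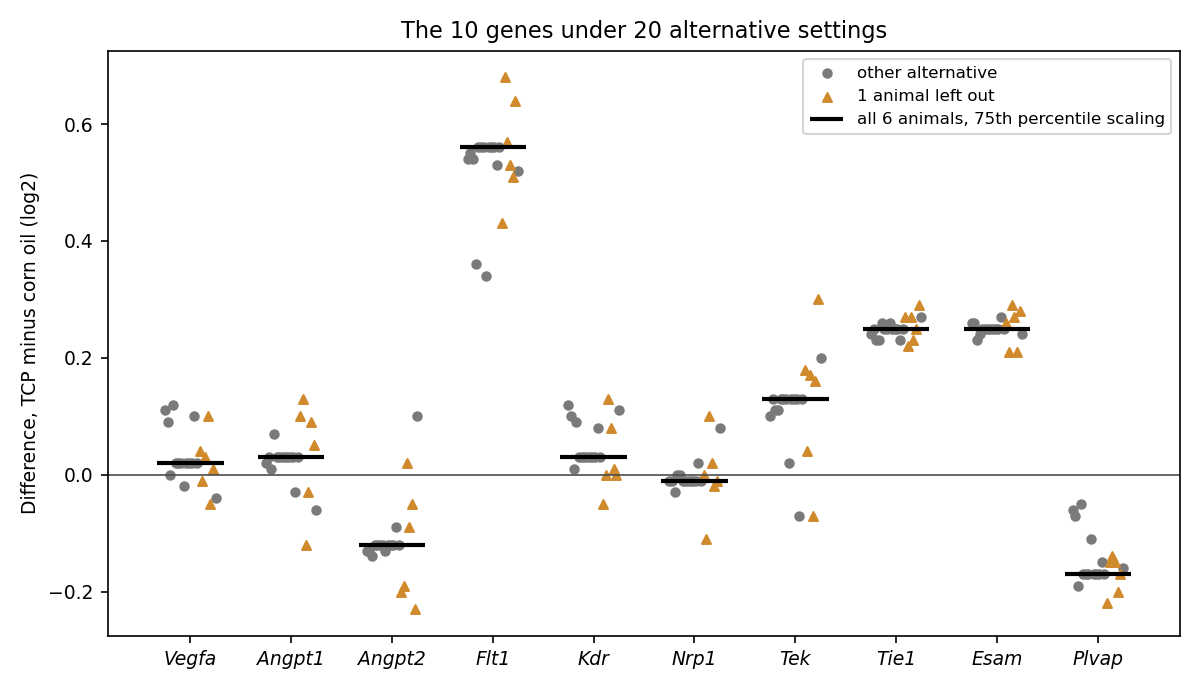
Difference between tricresyl phosphate and corn oil (TCP minus corn oil, log2, y axis) of each gene with all 6 animals (black bar) and under 20 alternative settings, of which the 6 that leave out 1 animal are triangles. Flt1, Tie1 and Esam stay above 0 and Plvap below 0 under all 20, while the other 6 genes lie on both sides of 0. Flt1, Tie1, Esam and Plvap were chosen by direction and have separated groups, so their triangles cannot cross 0.

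The genes whose animal-by-animal pattern lay nearest to each of the 4 separated members were found by the root mean square distance between mean-centred log2 levels over the 6 arrays, among 12412 genes with a symbol. For Flt1 these were Capn5 (distance 0.089), Slc35g2 (0.110) and Spmip4 (0.114). For Tie1 they were Kctd11 (0.038), Anapc7 (0.038) and Ints5 (0.039), and for Esam they included Mbd6 (0.029) and Rftn1 (0.032). Plvap had Surf4 (0.017), Atp5mc2 (0.018) and Trappc2l (0.019) as its neighbours. Esam and Tie1 were each the other's nearest member, at a distance of 0.049, with 9 genes nearer to Esam than Tie1 was and 13 nearer to Tie1 than Esam was. Both were chosen because they were higher on these arrays, so a short distance between them partly follows from the choice. The nearest member to Flt1 was Tie1 at 0.236, with 238 genes nearer, and to Plvap it was Kdr at 0.129, with 3950 genes nearer.

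The other genes of the pathway and of the endothelium were read from 11 lists with 131 measured genes, of which 77 were higher and 54 lower with tricresyl phosphate. With limma 0 of the 131 passed an adjusted p under 0.05, the lowest adjusted p being 0.811. At an unadjusted p under 0.05 there was 1 higher gene, Plcg2, and there were 2 lower genes, Palmd and Cavin1, where 1.63% and 3.86% of all genes tested were so. The groups did not overlap in 7 higher genes (5.34%) and 3 lower genes (2.29%), beside the 3.85% and 7.95% of all genes. The median difference of the 131 was 0.03.

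The remaining VEGF family members gave no separated groups. Vegfb, a ligand of FLT1, was at 1.82 ± 0.21 with tricresyl phosphate and 2.03 ± 0.09 with corn oil (SD, n = 3 each), a difference of −0.21 ± 0.13 (SE). The lymphatic ligands Vegfc and Vegfd differed by 0.04 ± 0.18 and 0.28 ± 0.28 (SE), Pgf, which also binds FLT1, by 0.05 ± 0.35 (SE), and the lymphatic receptor gene Flt4 by 0.18 ± 0.31 (SE). The co-receptor gene Nrp2 did not pass the filter on dim spots.

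Genes of signalling downstream of the receptors were spread around 0. Of 23 measured VEGF receptor signalling genes 15 were higher and 8 lower (median 0.04). Plcg2, a phospholipase C gamma, was at −0.45 ± 0.19 with tricresyl phosphate and −0.74 ± 0.05 with corn oil (SD, n = 3 each), a difference of 0.29 ± 0.12 (SE) with separated groups. The PI3 kinase regulatory subunit gene Pik3r1 differed by −0.38 ± 0.16 (SE), and the 2 genes with the highest level, Cdc42 and Mapkapk2, by −0.18 ± 0.12 and −0.02 ± 0.08 (SE). Of 11 angiopoietin and TIE signalling genes 6 were higher and 5 lower (median 0.01), with Itga5, an integrin subunit, at 0.27 ± 0.16, Mmp14, a membrane metalloproteinase, at 0.17 ± 0.16, Grb7 at 0.04 ± 0.09 and the phosphatase gene Ptpn11 at −0.04 ± 0.14 (differences ± SE).

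Junction genes and caveola genes lay on both sides of 0, and whether either list moved with Esam or Plvap was not tested. Of 19 junction genes 12 were higher and 7 lower (median 0.01). The only junction gene with separated groups was Jup, plakoglobin, which was higher by 0.18 ± 0.08 (SE). The catenin gene Ctnnd1 differed by 0.29 ± 0.14, the connexin gene Gja1 by −0.31 ± 0.13, F11r by −0.10 ± 0.10 and Afdn by 0.01 ± 0.19 (SE). Of 9 caveola and fenestra genes 3 were higher and 6 lower (median −0.01). The caveolar coat gene Cavin1 was at −4.03 ± 0.38 with tricresyl phosphate and −3.46 ± 0.12 with corn oil (SD, n = 3 each), a difference of −0.56 ± 0.20 (SE), with groups that did not overlap. Cavin2 was likewise lower without overlap, by 0.17 on the log2 scale, while Pacsin2 differed by 0.00 ± 0.09 (SE). Wholly higher were 1 of the 19 junction genes and 0 of the 9 caveola and fenestra genes. Wholly lower were 0 of the 19 and 2 of the 9. Over all genes tested, 3.85% lay wholly higher and 7.95% wholly lower.

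**Figure D4:**
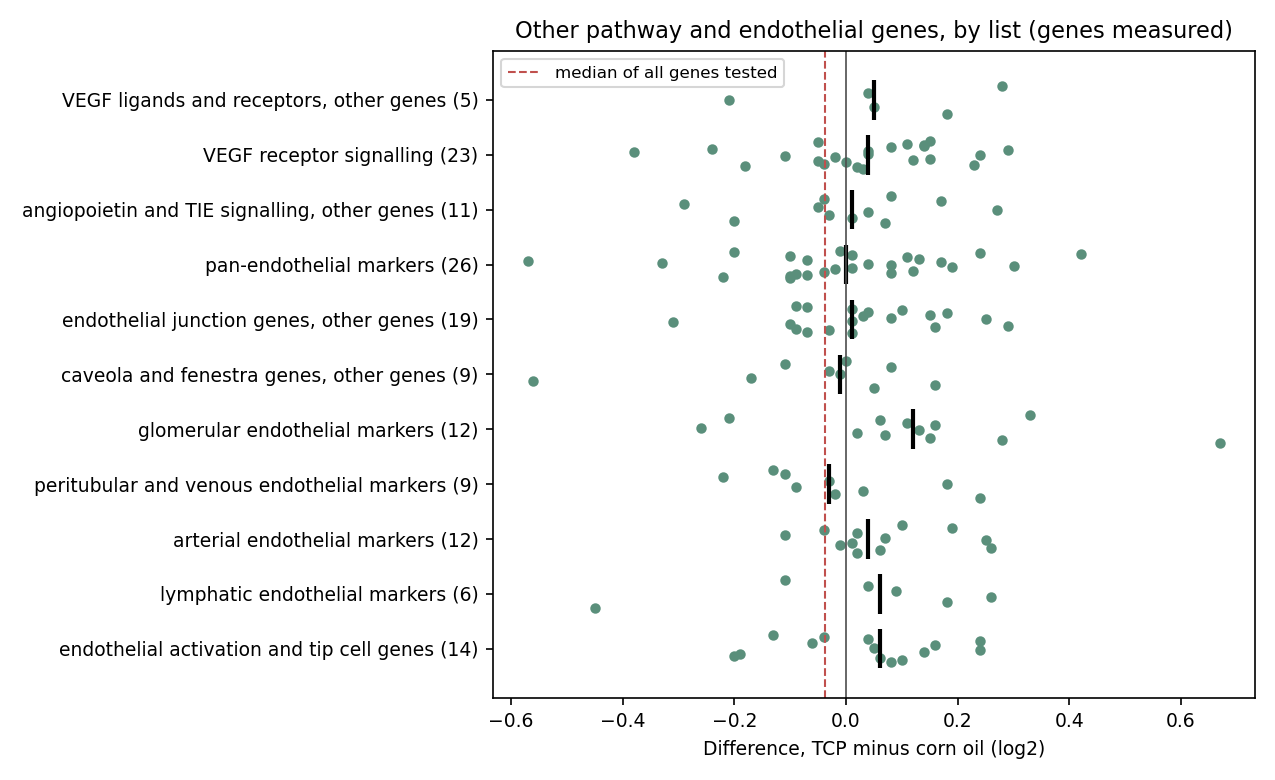
Difference between tricresyl phosphate and corn oil (TCP minus corn oil, log2, x axis) of each measured gene in the 11 pathway and endothelial lists, 1 point per gene, with the median of each list as a black bar and the median of all genes tested as a dashed line at −0.038. List medians lie between −0.03 and 0.12 and no point passed the limma threshold.

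By vascular bed, the glomerular endothelial list had 10 of 12 genes higher, where 40.8% of all genes tested were higher. Its median, 0.12, was the highest of the 11 lists and ran from 0.04 to 0.18 over the 19 alternatives. The alternatives reuse the same 6 animals, and the list was chosen with earlier results of these data known. The kept sign of its median is therefore a description and not support. No gene of this list had separated groups. Cyp26b1, a retinoic acid hydroxylase, differed by 0.67 ± 0.36 (SE) with an SD of 0.72 between treated animals, the transcription factor gene Tbx3 by 0.33 ± 0.15, Plat, tissue plasminogen activator, by 0.16 ± 0.10 and Ptgds by 0.11 ± 0.16 (SE). The peritubular and venous list had 3 genes higher and 6 lower (median −0.03), with the venous receptor gene Ephb4 at 0.24 ± 0.12, Jup again, the venous transcription factor gene Nr2f2 at −0.22 ± 0.13 and Igfbp3 at 0.03 ± 0.25 (differences ± SE). The arterial list had 9 higher and 3 lower (median 0.04), with the connexin gene Gja5 at 0.25 ± 0.15, Sema3g at 0.19 ± 0.11, Mgp at 0.02 ± 0.18 and Notch1 at −0.04 ± 0.08. In the lymphatic list 4 of 6 were higher (median 0.06), with Lyve1 at 0.26 ± 0.23, Pdpn at 0.04 ± 0.17 and Ccl21 at −0.45 ± 0.25. Of 14 activation and tip cell genes 9 were higher and 5 lower (median 0.06), among them Nos3, the endothelial nitric oxide synthase, at 0.24 ± 0.13 and Plau at −0.06 ± 0.21.

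The level of endothelial markers as a whole was the same in both groups to 2 decimals. Of 26 measured pan-endothelial markers out of 32 listed, 13 were higher and 13 lower, and the mean level of the list ran from −1.04 to −0.95 with tricresyl phosphate and from −1.03 to −0.98 with corn oil. The group means differed by 0.00, with an SD of 0.05 with tricresyl phosphate and 0.02 with corn oil (n = 3 each) and an exact two-sided permutation p of 1, where the smallest possible is 0.1. Pecam1, a pan-endothelial adhesion molecule, was at 2.34, 2.52 and 2.10 with tricresyl phosphate against 2.47, 2.39 and 2.30 with corn oil, so its groups overlapped. Palmd was lower without overlap, by 0.57 on the log2 scale, Myct1 differed by −0.33 ± 0.15 and Adgrl4 by −0.10 ± 0.12 (SE).

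Mean levels of the marker lists for cells that surround or feed these vessels overlapped between the groups, except for macrophages and lymphocytes. Podocyte markers averaged 0.61 ± 0.11 with tricresyl phosphate and 0.62 ± 0.06 with corn oil, and pericyte, mesangial and smooth muscle markers 0.28 ± 0.08 with tricresyl phosphate and 0.21 ± 0.12 with corn oil (SD, n = 3 each). Exact two-sided permutation p-values were 1 and 0.4. Macrophage and lymphocyte markers, 14 measured of 17, had means from −0.98 to −0.88 with tricresyl phosphate and from −0.84 to −0.77 with corn oil. These groups did not overlap, with a difference of −0.12 and an exact two-sided permutation p of 0.1, the smallest possible, or 0.6 adjusted over the 6 lists tested. Red cell and platelet markers, relevant because ESAM is also a platelet protein, had 8 of 9 genes lower. List means ran from −0.44 to −0.08 with tricresyl phosphate and −0.12 to −0.03 with corn oil, with an exact two-sided permutation p of 0.3. Hbb, Alas2 and Epb42 lay wholly lower and 0 of the 9 wholly higher, where 7.95% and 3.85% of all genes tested were so. The list includes Slc4a1, also an intercalated cell gene, which was highest in tricresyl phosphate replicate 1, at 3.66. The list without Slc4a1 was not tested. The part of these cells in the differences of Flt1, Tie1, Esam and Plvap was not tested.

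**Figure D5:**
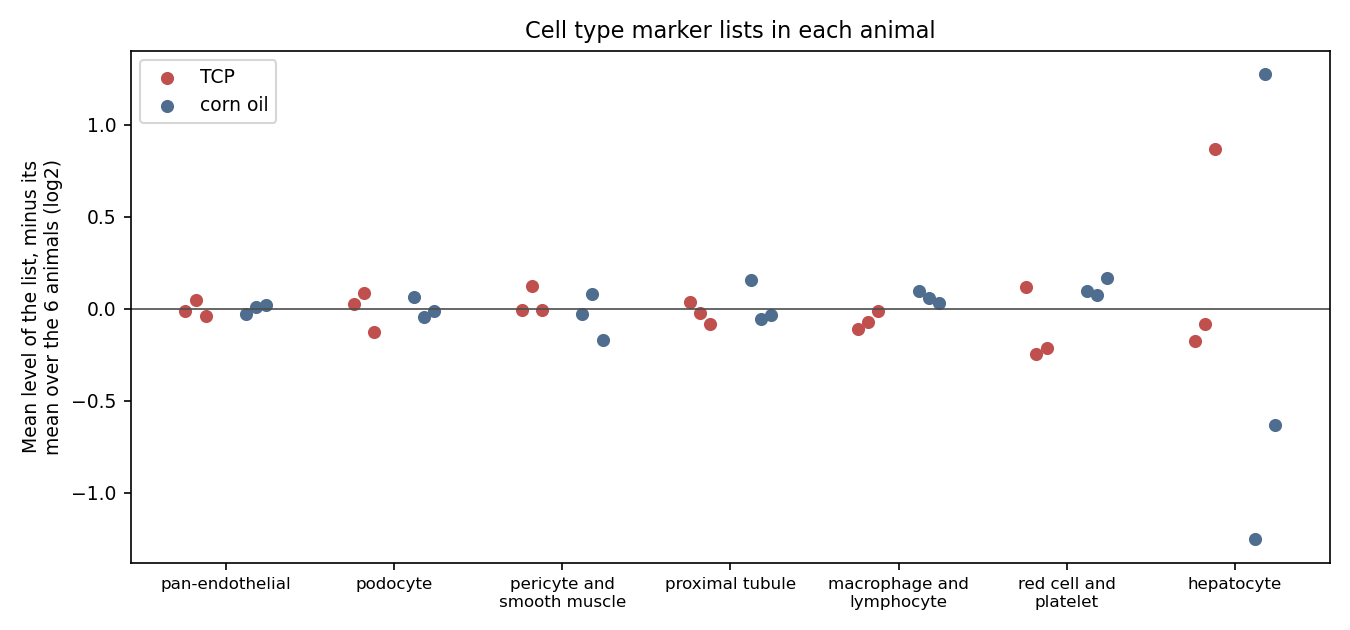
Mean log2 level of 7 cell type marker lists in each animal, minus the mean of the list over the 6 animals (y axis), with the tricresyl phosphate animals (TCP) left and the corn oil animals right in each list. The pan-endothelial points of both groups lie close to 0, and the hepatocyte list has the widest spread.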

How the data were processed

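Probe intensities of 6 arrays, 3 with tricresyl phosphate and 3 with corn oil, were analysed. The deposited intensity values are linear processed signals, background-subtracted within each array by Agilent Feature Extraction, version 10.7.1.1 per the file headers and 10.7 per the submitters' processing notes. The authors' value table equals these signals divided by 1 number per array (coefficient of variation of the ratio 0.00122% to 0.00125% over its values above 1), so it is on a linear scale with no centring of genes, with column medians from 0.1094 to 0.1151. Flags and control types, of a kind other than a measurement, are also deposited. The number of arrays limits the precision.

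Values became log2 signals minus each array's 75th percentile over non-control probes, and 77 outlier spots were set missing. Probes were named by matching accessions to the RefSeq table of GRCr8 (28206 with 1 symbol, 0 with several, 33331 with none). The headers give the build rn4 for the array, so no coordinates were taken from the array. Probes well above background on at least 3 arrays were kept (43099), and the brightest kept probe, called representative, stood for its gene. The comparison used limma (3.58.1, with R 4.3.3), its lmFit and eBayes functions, and Benjamini-Hochberg adjustment of two-sided p-values over all genes. The threshold was 0.05. Each SE is that of this fit, or for the other probes from a fit of every kept probe. The same method was run on simulated arrays with the means and residual SDs of these arrays. There it recovered 5 of 50 genes changed by 0.5 on the log2 scale and 26 of 50 changed by 1. It recovered 47 of 50 changed by 2 and 43 of 50 changed by 3, with 9 false calls. The noise was drawn independently for each gene and holds no variation shared by genes on an array, so these rates need not hold for the real arrays. List means were compared with an exact permutation test over animals.

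The members and the 20 gene lists were chosen with earlier results of these data known. Genes named are all 10 members, all measured VEGF family genes and, of each other list, the 2 with the highest level and the 2 with the smallest p, apart from 2 genes that are not reported here. Alternatives were other normalizations, filters, probe and variance treatments, blocks and left-out animals. Same-numbered animals had correlations of deviations from their group means of 0.086, −0.051 and −0.044, so the numbers were not treated as pairs. Normexp used the median spot and background signals.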

Additional observations from a re-analysis of the deposited data

How the results depend on the processing

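Flt1, Tie1, Esam and Plvap kept their direction under all 20 alternatives, with ranges of 0.34 to 0.68, 0.22 to 0.29, 0.21 to 0.29 and −0.22 to −0.05. These genes were chosen by direction and their groups do not overlap, so leaving out an animal could not turn their sign. The filter, variance and replicate block settings gave the same differences as the main setting for them. Their kept direction is therefore a description and not support. The Flt1 difference was 0.34 with its 3 probes averaged, where the other 2 probes gave 0.22 and 0.25. Plvap was −0.06 under quantile, −0.07 under cyclic loess and −0.05 under normexp with quantile normalization, and the cause was not tested. Of 200 member differences under the alternatives 196 moved by less than the SD between animals. Several alternatives, among them the filter, variance and replicate block settings, returned the main difference for every member, so this count does not measure stability. Signs turned under 5 alternatives for Nrp1, 4 for Vegfa, 4 for Angpt1, 3 for Kdr, 2 for Angpt2 and 2 for Tek. The slide block and leaving out corn oil replicate 1, the animal alone on its slide, gave the same differences. Both are among the sign turns of Nrp1, Angpt1 and Tek, where they are 1 result and not 2. The count of genes past the limma threshold, 0 with all 6 animals, was 2 under normexp with quantile normalization, 2 with an intensity trend and robust variance and 0 to 1 with 1 animal left out (1 without tricresyl phosphate replicate 2 and 1 without tricresyl phosphate replicate 3), and none of these was a member or a list gene. With the replicate number as a block (replicate block) 0 genes passed, and 1927 had an unadjusted p under 0.05. The Flt1, Tie1, Esam and Plvap differences themselves do not move under that block. With 3 animals a group, the smallest exact p is 0.1, so list means could not pass 0.05.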

Other observations

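The hypoxia list held hypoxia-inducible genes and genes of the hypoxia-inducible factor pathway, and its transcripts were spread around 0. Of 16 measured members 7 were higher and 9 lower with tricresyl phosphate (median −0.02), and 0 passed limma over all genes, with 1 at an unadjusted p under 0.05. That gene, Ankrd37, a target of hypoxia-inducible factors, was at 2.58 ± 0.20 with tricresyl phosphate and 2.92 ± 0.07 with corn oil (SD, n = 3 each), a difference of −0.34 ± 0.13 (SE) with separated groups. Car9 differed by −0.19 ± 0.11, Ldha by −0.07 ± 0.11 and Ndrg1 by 0.02 ± 0.12 (SE).

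The fatty acid binding protein gene Fabp4, known from adipocytes and capillary endothelium, read −3.43, −2.14 and −3.41 with tricresyl phosphate and −4.38, −4.34 and −5.46 with corn oil. Every treated animal was above every vehicle animal, by 1.73 ± 0.46 (SE) on average, and limma's adjusted p was 0.811. The adipocyte list, in which it was placed, had 4 of 7 genes higher (median 0.12), with Adipoq at 0.20 ± 0.23, Cfd at 0.12 ± 0.28 and Cidec at −0.51 ± 0.33 (differences ± SE).

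Podocytes, the glomerular source of VEGF-A, had 6 markers higher and 10 lower (median −0.04). Clic5 and Actn4 were lower without overlap, by 0.26 and 0.13 on the log2 scale, and Podxl differed by −0.03 ± 0.18 (SE). Of the 16 podocyte markers measured, 1 lay wholly higher and 2 wholly lower, where 3.85% and 7.95% of all genes tested were so. Pericyte, mesangial and smooth muscle markers had 12 of 15 higher (median 0.08), with Gata3 at 0.25 ± 0.12, Pdgfrb at 0.21 ± 0.13 and Notch3 at −0.03 ± 0.12. Proximal tubule markers had 4 higher and 8 lower (median −0.07), with Slc13a3 at −0.15 ± 0.09, Lrp2 at −0.13 ± 0.09 and Slc34a1 at −0.09 ± 0.12. Distal nephron and collecting duct markers had 6 higher and 5 lower (median 0.05), with Aqp3 at 0.18 ± 0.09, Scnn1g at 0.14 ± 0.12, Umod at −0.12 ± 0.20 and Aqp2 at −0.04 ± 0.18. Among macrophage and lymphocyte markers 5 were higher and 9 lower (median −0.12), with C1qa at −0.28 ± 0.10, Cd3g at −0.50 ± 0.21, Aif1 at −0.51 ± 0.25 and C1qb at −0.13 ± 0.13. The red cell and platelet list had a median of −0.31, with Hbb at −0.34 ± 0.12, Alas2 at −0.34 ± 0.10, Epb42 at −0.31 ± 0.09 and Slc4a1, also an intercalated cell gene, at 0.08 ± 0.25. Of 15 hepatocyte markers 9 were higher and 6 lower (median 0.22), with Tf at −0.60 ± 0.19, Rbp4 at 0.57 ± 0.30 and Apoc3 at 0.01 ± 0.14.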
